A study of Homo sapiens with 7 samples.

Results

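The cytosolic ribosomal protein genes encode the proteins of the large and the small subunit of the ribosome in the cytoplasm. They were taken by their symbols, as the RPL and RPS genes with a number together with RPSA and the stalk genes RPLP0, RPLP1 and RPLP2, without kinase genes, pseudogenes and Y-linked genes. The rule gave 84 of the 57189 genes in the count table. Of these, 43 encode proteins of the large subunit, 31 proteins of the small subunit and 3 the stalk, and 7 are paralogs of a core gene (RPL3L, RPL7L1, RPL10L, RPL22L1, RPL26L1, RPL39L and RPS27L). The first 3 groups are called the 77 core genes. The rule itself uses gene symbols only.

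The RNA came from RH30 cells, an established cell line of alveolar rhabdomyosarcoma, a childhood tumor of the skeletal muscle lineage. The label gives the genotype as wt, and according to the study's methods the RH30 cells used throughout expressed GFP and luciferase. The cells were either left untreated (4 samples) or exposed for 24 h to BV6 at 5 µM (3 samples). BV6 is a Smac mimetic. It binds inhibitor of apoptosis proteins as Smac does after its release from mitochondria, and it leads to the degradation of cIAP proteins and to NF-κB signaling. BV6 samples 2, 3 and 4 share a BC label with untreated samples 2, 3 and 4, while untreated sample 1 has a label of its own. The labels do not say what BC stands for, or whether the samples came from separate cultures. A figure legend of the study calls its RNAseq samples biological replicates without saying how they were made. The p-values therefore measure only the spread between these samples. All samples are of 1 cell line.

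Ribosomal proteins are made in similar amounts, since each ribosome holds a single copy of nearly every one of them. Many of their mRNAs begin with a C followed by a run of C and T bases, the terminal oligopyrimidine (TOP) motif, through which LARP1 and the kinase mTOR control their translation. Introns of many ribosomal protein genes carry small nucleolar RNAs (snoRNAs), which guide the modification of ribosomal RNA. The comparison asked whether the mRNAs of this large and co-regulated gene family differed in level between BV6-treated and untreated RH30 cells.

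Of the 77 core genes, 62 were found in the RefSeq table of promoter windows (GRCh38.p14). In 46 of these 62 (74.2%) a RefSeq start lay on a C that was followed by at least 4 further C or T bases, against 1404 of all 27305 genes in the table (5.14%). The search used the strand of the gene only. With the run allowed to begin within 5 bases of the start, the counts were 53 of 62 (85.5%) and 25.2% of all genes. Among core genes, the runs were 5 to 19 bases long, with a median of 8. Of the paralogs, 5 were found in the table, and 1 of them, RPL22L1, had the run. Each sequence below spans 15 bases before the annotated start and 15 bases from it, 5′ to 3′. Capitals mark the pyrimidine run that begins at the start, or only the first base where there is no such run. The stalk genes and RPS6, RPS27A, RPS24, RPS3 and RPL41 are shown as core genes described further on, RPS28, RPS15 and RPS4X as core genes without the run at the annotated start, and the paralogs beside their core genes to show how their starts differ. In RPS28 such a run begins 1 base after the start, so RPS28 is among the 53 genes counted with the tolerance of 5 bases.
RPLP0 (chr12:120201097-120201126, minus strand): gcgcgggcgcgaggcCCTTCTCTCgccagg
RPLP1 (chr15:69452803-69452832, plus strand): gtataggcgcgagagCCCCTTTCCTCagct
RPLP2 (chr11:809952-809981, plus strand): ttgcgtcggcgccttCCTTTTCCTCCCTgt
RPS6 (chr9:19380222-19380251, minus strand): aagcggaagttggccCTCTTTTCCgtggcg
RPS27A (chr2:55232673-55232702, plus strand): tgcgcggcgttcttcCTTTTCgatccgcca
RPS24 (chr10:78033848-78033877, plus strand): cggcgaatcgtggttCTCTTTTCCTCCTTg
RPS3 (chr11:75399503-75399532, plus strand): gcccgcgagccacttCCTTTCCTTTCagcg
RPL41 (chr12:56116618-56116647, plus strand): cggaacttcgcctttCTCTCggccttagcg
RPS28 (chr19:8321481-8321510, plus strand): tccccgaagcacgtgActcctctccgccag
RPS15 (chr19:1438381-1438410, plus strand): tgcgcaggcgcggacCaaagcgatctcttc
RPS4X (chrX:72277234-72277263, minus strand): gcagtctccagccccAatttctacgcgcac
RPL22 (chr1:6199581-6199610, minus strand): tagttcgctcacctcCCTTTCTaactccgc
RPL22L1 (chr3:170870181-170870210, minus strand): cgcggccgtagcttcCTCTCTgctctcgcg
RPL26 (chr17:8383179-8383208, minus strand): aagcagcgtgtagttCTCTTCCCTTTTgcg
RPL26L1 (chr5:172958714-172958743, plus strand): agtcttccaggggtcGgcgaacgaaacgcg
RPS27 (chr1:153990747-153990776, plus strand): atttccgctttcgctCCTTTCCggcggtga
RPS27L (chr15:63157463-63157492, minus strand): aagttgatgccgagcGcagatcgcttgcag

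These are annotated starts, which the RNAseq counts did not measure. The genes lay on 21 chromosomes, with 12 on chromosome 19 and 4 on chromosome X. A snoRNA gene lay inside 28 of the 84 genes on the same strand (33.3%), compared with 275 of 20046 protein-coding genes of GENCODE (1.37%).

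RNAseq counts summed to between 54070030 and 77220882 per sample, so that 3 counts, the limit taken for detection, corresponded to 0.0389 to 0.0557 CPM (counts scaled to a common library size). These sums exceed the number of reads per library that the study's methods give, so the mates of a read pair may have been counted singly, and 3 counts may then stand for fewer than 3 fragments. The defining muscle regulators MYOD1 (344 ± 86.9 CPM, SD, n = 4, in untreated and 251 ± 89.6, n = 3, in BV6-treated cells) and MYOG (150 ± 53.8 and 154 ± 64.2 CPM) were expressed, and 14 of 15 muscle markers passed the filter on low counts. Their summed level was 2820 to 3751 CPM in untreated and 2413 to 3587 CPM in BV6-treated samples. Of 15 leukocyte markers, 9 passed the filter, with a summed level of 355 to 496 CPM in untreated and 275 to 402 CPM in BV6-treated samples, most of it from NCAM1 (427 ± 65.3 and 347 ± 69.2 CPM), which rhabdomyosarcoma cells also express. Next in level among the leukocyte markers was NKG7, at 9.79 ± 1.6 CPM (n = 4) in untreated and 6.82 ± 2.52 CPM (n = 3) in BV6-treated cells. PTPRC was at 0.378 ± 0.251 CPM (n = 4) in untreated cells and 0.466 ± 0.305 CPM (n = 3) in BV6-treated cells. No marker of either list was at 0 in all samples, and edgeR called 0 of either, with 3 muscle markers and 0 leukocyte markers at an unadjusted p below 0.05. Of all genes tested, edgeR called 0.45% and DESeq2 1.93%, and 8.39% had an unadjusted p below 0.05 in edgeR. Log2 fold changes were below 0 in 11 of the 14 tested muscle markers (median -0.23) and 7 of the 9 tested leukocyte markers (median -0.30). Of all 23124 genes tested, 12104 had a value below 0. The replicate block and DESeq2 each called 1 muscle marker lower, the acetylcholine receptor gene CHRND (240 ± 35.7 CPM, n = 4, in untreated and 151 ± 25.2 CPM, n = 3, in BV6-treated samples), which was named after its values were seen. The part of this difference in the ribosomal protein genes was not tested.

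BV6 treatment for 24 h was not followed by a change in any ribosomal protein gene that passed the test. Together the 84 genes took nearly the same share of all counts in both groups. The share was 4.42, 4.25, 4.84 and 5.05% in untreated samples 1 to 4 and 4.44, 4.7 and 5.06% in BV6 samples 2 to 4. The means were 4.64% ± 0.368 (SD, n = 4) and 4.73% ± 0.312 (SD, n = 3). BV6 samples 2 and 3 lay within the range of the untreated samples and BV6 sample 4 just above it. Between samples with the same BC label, the log2 ratio of the shares was 0.06, -0.04 and 0.0041. The genes of the large subunit took 2.64% ± 0.243 of the counts in untreated and 2.71% ± 0.177 in BV6-treated samples, those of the small subunit 1.69% ± 0.114 and 1.73% ± 0.119, and the stalk genes 0.276% ± 0.0153 and 0.267% ± 0.0376. The groups overlapped for the genes of both subunits and for the stalk. In such bulk RNA, fewer cells of a type and less RNA per cell cannot be told apart.

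**Figure D1:**
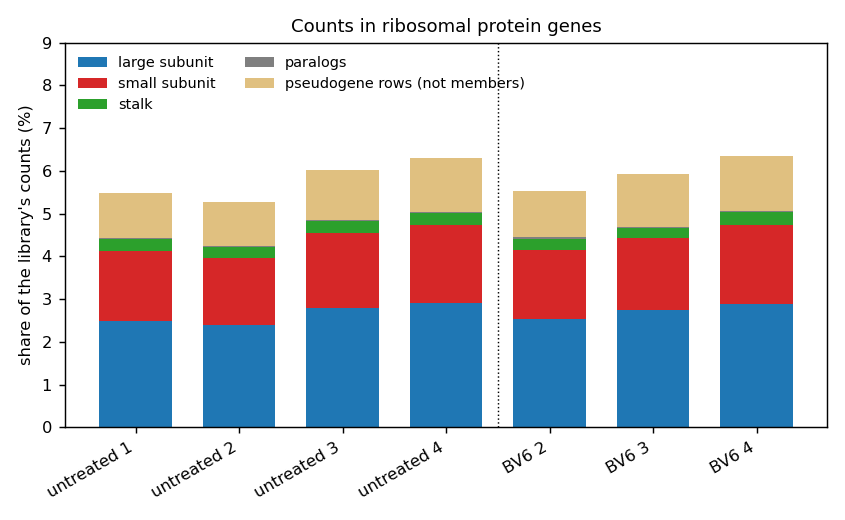
Stacked bars give the share of each library's counts (%, vertical axis) in large subunit, small subunit, stalk and paralog genes and, on top, in ribosomal protein pseudogene rows, for 4 untreated and 3 BV6 samples. The share in the genes themselves ran from 4.25 to 5.05% in untreated and from 4.44 to 5.06% in BV6-treated samples.

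A further 1.14% ± 0.11 of the counts in untreated samples and 1.19% ± 0.0981 in BV6-treated samples lay in 1145 rows of ribosomal protein pseudogenes. These are near-identical copies of the genes, and how reads shared between copies were counted is not given in the sources used here. For RPL21, RPL7, RPS26, RPS3A and RPSA, the pseudogene rows held more counts than the gene itself, and for 40 of the 84 genes they held under 1% of the gene's counts. The levels of the former genes are therefore uncertain. When each gene was summed with its pseudogene rows, an alternative chosen after the data had been seen, no gene was called either.

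On the scale of single genes, 83 of the 84 passed the filter on low counts. The exception was RPL10L, a copy of RPL10 without introns that is known for its expression in the testis. It had 0, 2, 0 and 2 counts in untreated samples 1 to 4 and 0, 2 and 2 counts in BV6 samples 2 to 4, below the detection limit in each, and 2 counts may be the mates of a single fragment. Of the 83 genes, 0 were called by edgeR's quasi-likelihood test at a Benjamini-Hochberg adjusted p below 0.05, while 104 of all 23124 genes tested were called (0.45%). At an unadjusted p below 0.05 the counts were also 0 of 83, against 8.39% of all genes. DESeq2 called 0 of 83 as well, against 1.93% of all genes, with 1 gene, RPL39L, at an unadjusted p below 0.05. In 0 of the 83 genes were the 4 untreated and 3 BV6-treated samples without overlap, compared with 8.83% of all genes.

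The log2 fold changes were small, with a median of 0.04 beside -0.01 for all genes tested, and ran from -0.35 for RPS28 to 0.19 for RPS27A. This fit did not use the BC labels, and with a block for them the median was 0.006 beside -0.02 for all genes tested. Without the block, log2 fold changes were above 0 in 52 genes and below 0 in 31, while 47.7% of all genes had a value above 0. The 95% confidence interval held 0 for each of the 83 genes, and extended in the median by 0.278 to either side on the log2 scale. For 69 of the 83 it lay within ±0.5 (a fold of 1.41) and for 81 within ±1 (a fold of 2). The exceptions to the wider limit were RPL3L, which was expressed at a low level, and RPS28. These intervals cover the sizes of change that the data leave possible, and a p above the threshold does not show that levels were equal.

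**Figure D2:**
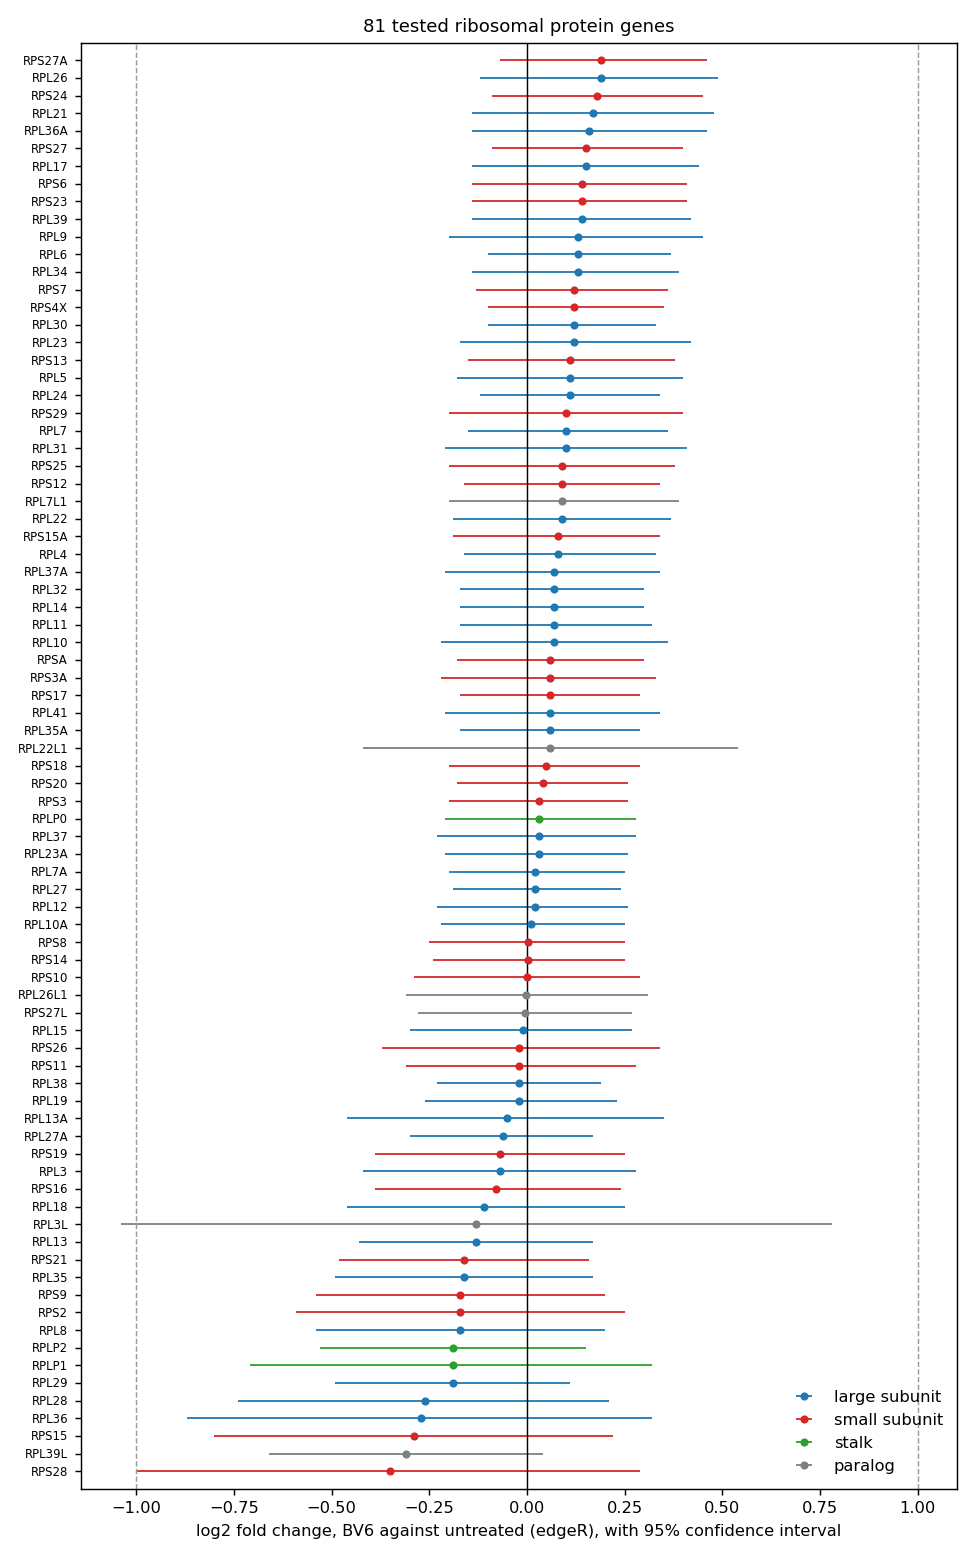
Points give the edgeR log2 fold change of BV6-treated against untreated samples (horizontal axis) for 81 of the tested genes, ordered by value and colored by group, bars the 95% confidence interval, and dashed lines a log2 fold change of -1 and 1. All intervals shown cross 0.

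Genes of the large subunit had a median log2 fold change of 0.06 (43 genes, 29 above 0), with values from -0.27 to 0.19. RPL26, which lies near the exit of the peptide tunnel, was at 335, 367, 433 and 447 CPM in untreated samples 1 to 4 and at 392, 506 and 452 CPM in BV6 samples 2 to 4. BV6 samples 3 and 4 were above all untreated samples, while BV6 sample 2 lay between them. The log2 fold change was 0.19 (SE 0.134, edgeR adjusted p = 0.756). RPL6 was at 734, 800, 871 and 879 CPM in untreated and at 847, 977 and 879 CPM in BV6-treated samples, again with overlap (log2 fold change 0.13, SE 0.105, edgeR adjusted p = 0.768).

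At the other end stood RPL28 and RPL29. RPL28 was at 420, 335, 352 and 383 CPM in untreated and at 344, 194 and 393 CPM in BV6-treated samples. Only BV6 sample 3 lay below the untreated range, and the log2 fold change of -0.26 (SE 0.211, edgeR adjusted p = 0.775) became -0.0097 without it. RPL29 was at 497, 445, 443 and 464 CPM in untreated and at 421, 321 and 474 CPM in BV6-treated samples (log2 fold change -0.19, SE 0.134, edgeR adjusted p = 0.752). BV6 samples 2 and 3 lay below all untreated samples and BV6 sample 4 within their range. Without BV6 sample 3 the log2 fold change was -0.04. RPL10, the X-linked gene of a protein close to the catalytic center, differed little (1206 ± 161 CPM, n = 4, and 1266 ± 150 CPM, n = 3).

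Genes of the small subunit had a median log2 fold change of 0.05 (31 genes, 20 above 0), with values from -0.35 to 0.19. RPS27A encodes a fusion of ubiquitin with a ribosomal protein and thus supplies both. Its level was 486, 554, 611 and 623 CPM in untreated samples 1 to 4 and 585, 717 and 648 CPM in BV6 samples 2 to 4. BV6 samples 3 and 4 lay above all untreated samples and BV6 sample 2 within their range (log2 fold change 0.19, SE 0.119, edgeR adjusted p = 0.722). An exon of RPS27A overlaps CLHC1 on the opposite strand, and since it is not given whether the counting used strand, reads of such pairs cannot be told apart.

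RPS24, a gene mutated in Diamond-Blackfan anemia, was at 315, 375, 404 and 416 CPM in untreated and at 389, 465 and 426 CPM in BV6-treated samples (log2 fold change 0.18, SE 0.121, edgeR adjusted p = 0.744). RPS27 was at 331 ± 29.5 CPM (n = 4) and 368 ± 32.2 CPM (n = 3), with a log2 fold change of 0.15. In both genes, BV6 sample 2 fell within the untreated range.

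RPS6, the substrate of S6 kinase downstream of mTOR, was at 558, 539, 673 and 648 CPM in untreated and at 604, 758 and 632 CPM in BV6-treated samples. The groups overlapped and the log2 fold change was 0.14 (SE 0.123, edgeR adjusted p = 0.795). RPS3, which besides its place in the ribosome is known as a partner of the NF-κB subunit p65 in the nucleus, was at 1668, 1602, 1842 and 1881 CPM in untreated and at 1681, 1768 and 1906 CPM in BV6-treated samples. Its log2 fold change was 0.03, with a 95% confidence interval from -0.2 to 0.26. RPSA, also known as a laminin receptor, was at 1240 ± 123 and 1291 ± 65.5 CPM and the X-linked RPS4X at 1046 ± 71.4 and 1138 ± 77.2 CPM (n = 4 and n = 3).

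The lowest fold changes of the small subunit were those of RPS28 and RPS15, whose protein reaches the decoding site. RPS28 (chr19:8321158-8323340, GRCh38) was at 140, 112, 112 and 110 CPM in untreated samples 1 to 4 and at 109, 44.7 and 125 CPM in BV6 samples 2 to 4. A single sample, BV6 3, was low, and the other BV6-treated samples were close to the untreated ones. The log2 fold change was -0.35 (SE 0.289, edgeR adjusted p = 0.778) and -0.02 without BV6 sample 3. Exons of RPS28 overlap NDUFA7 and KANK3 on the opposite strand. RPS15 was at 326, 228, 225 and 240 CPM in untreated and at 242, 131 and 252 CPM in BV6-treated samples, where BV6 sample 3 was again the lowest of all and untreated sample 1 the highest (log2 fold change -0.29, SE 0.226, edgeR adjusted p = 0.768).

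The stalk, which recruits translation factors to the ribosome, consists of RPLP0 as the base and of RPLP1 and RPLP2 as paired side chains. RPLP0 was at 1634, 1513, 1792 and 1906 CPM in untreated and at 1718, 1648 and 1884 CPM in BV6-treated samples, so that the BV6-treated samples all lay within the untreated range. RPLP1 was at 865, 763, 687 and 745 CPM in untreated and at 738, 394 and 875 CPM in BV6-treated samples, and RPLP2 at 307, 305, 274 and 283 CPM and at 264, 194 and 313 CPM. For both side chain genes BV6 sample 3 was the lowest sample and BV6 sample 4 the highest. The log2 fold changes were 0.03 for RPLP0, -0.19 for RPLP1 and -0.19 for RPLP2, with edgeR adjusted p-values of 0.954, 0.843 and 0.776. Without BV6 sample 3 they were 0.08, 0.08 and -0.01, so the direction for RPLP1 rested on that sample.

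Among the paralogs, RPL39L (chr3:187120948-187180908, GRCh38), a copy of RPL39 known from the testis and from tumors, had the smallest p of all 83 genes. It was at 9.52, 8.62, 9.77 and 9.07 CPM in untreated samples 1 to 4 and at 6.41, 7.04 and 8.88 CPM in BV6 samples 2 to 4. BV6 samples 2 and 3 lay below all untreated samples and BV6 sample 4 within their range. The log2 fold change was -0.31 (SE 0.155, 95% confidence interval -0.66 to 0.04), with an adjusted p = 0.638 in edgeR. The core gene RPL39 was at 263 ± 35.6 CPM (n = 4) and 290 ± 22.9 CPM (n = 3), with a log2 fold change of 0.14.

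To set each paralog against its core gene, levels were divided by the length of the coding sequence. In untreated samples RPL39L then reached 3.56% ± 0.537 (SD, n = 4) of the level of RPL39, and in the BV6 group 2.56% ± 0.359 (SD, n = 3). The pseudogene rows of RPL39 held 62.9% of its own counts, so these percentages are uncertain. RPL7L1 stood highest, at 25.7% ± 4.23 of RPL7 in untreated and 25.6% ± 5.21 in BV6-treated samples, although the pseudogene rows of RPL7 held more counts than RPL7 itself. RPS27L, a p53-responsive copy of RPS27, reached 11.5% ± 1.22 and 10.3% ± 0.867 of its core gene. Counts come from whole transcripts, whose annotated lengths can differ widely between copy and core gene. These lengths are 3769 and 1233 bases for RPL7L1 and RPL7, and 6110 and 352 bases for RPS27L and RPS27. The percentages and the order of the copies therefore hold only for the scale by coding length.

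On this scale, the remaining copies were lower still. RPL26L1 was at 5.33% ± 1.07 of RPL26 in untreated and 4.69% ± 1.12 in BV6-treated samples, and RPL22L1 at 3.1% ± 0.642 of RPL22 and 3.04% ± 0.53. Pseudogene rows held 31.9% of the counts of RPL26 and 35.9% of those of RPL22, which limits these percentages too. RPL3L, which replaces RPL3 in heart and skeletal muscle, was at 0.0292% ± 0.0121 and 0.0282% ± 0.012 of RPL3. Its own level was 0.286, 0.392, 0.514 and 0.21 CPM in untreated and 0.214, 0.408 and 0.334 CPM in BV6-treated samples, above the detection limit in each but with the widest spread of all 83 genes among the untreated samples (1.26 on the log2 scale). The other log2 fold changes of the paralogs lay between -0.13 (RPL3L) and 0.09 (RPL7L1), and the groups overlapped for each of them.

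Levels also differed among core genes, on the scale of CPM per kilobase (kb) of coding sequence. In untreated samples the median of the 77 core genes was 1059, beside 15.6 for 14046 tested genes with a coding sequence, and the quartiles of the core genes were 771 and 1537, a fold of 1.99. RPL41, the smallest ribosomal protein, was at the top with 11467 ± 1575 (SD, n = 4), but its coding sequence of 75 bases is much shorter than its transcript of 469 bases, so that this value is overstated. RPS3 (2398 ± 185), RPLP1 (2237 ± 218) and RPL9 (2034 ± 331) came next and did not differ beyond their spread. The annotated transcript of RPLP1 is also long, with 1174 bases for 342 coding bases. The pseudogene rows of RPL9 held 97.8% of its counts, against 0.00493% for RPS3. The places of RPLP1 and RPL9 are therefore uncertain. The lowest levels were those of RPL36 (429 ± 55), RPL34 (403 ± 49.9) and RPS26 (265 ± 34.5), of which RPL36 and RPL34 overlapped, while the highest value of RPS26 (316) lay below the lowest of RPL34 (341). The place of RPS26 holds only for its own row, since its pseudogene rows held 138% of its counts, against 1.02% for RPL34 and 0.116% for RPL36. The order of the genes was similar in all samples, with a median Spearman's rho of 0.966 over the 21 pairs of samples. The lowest rho was 0.796, between untreated sample 1 and BV6 sample 3, and pairs without BV6 sample 3 had a rho of at least 0.943. These coefficients describe 77 genes that share library and depth within a sample.

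Variation between samples was not shared evenly by the genes. In untreated samples the log2 range was 0.33 in the median over the 83 genes, against 0.53 for all genes tested, and it ran from 0.09 for RPL35 to 0.53 for RPS15 among core genes. Most genes tested had far lower levels (a median of 15.6 CPM per kb against 1059 for core genes), and ranges were not compared at equal level. In BV6 samples 2 and 4, the log2 ratios to the untreated sample of the same label had an SD of 0.106 and 0.0982 over the 77 core genes. In BV6 sample 3 the SD was 0.333, and 11 core genes lay below -0.5, down to -1.32 for RPS28 and -1.03 for RPL36. Among the others were RPL28, RPL35, RPL8, RPLP1, RPS15, RPS21 and RPS9. The median GC content of the transcripts of these 11 genes was 59.7%, against 49% for all core genes.

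**Figure D3:**
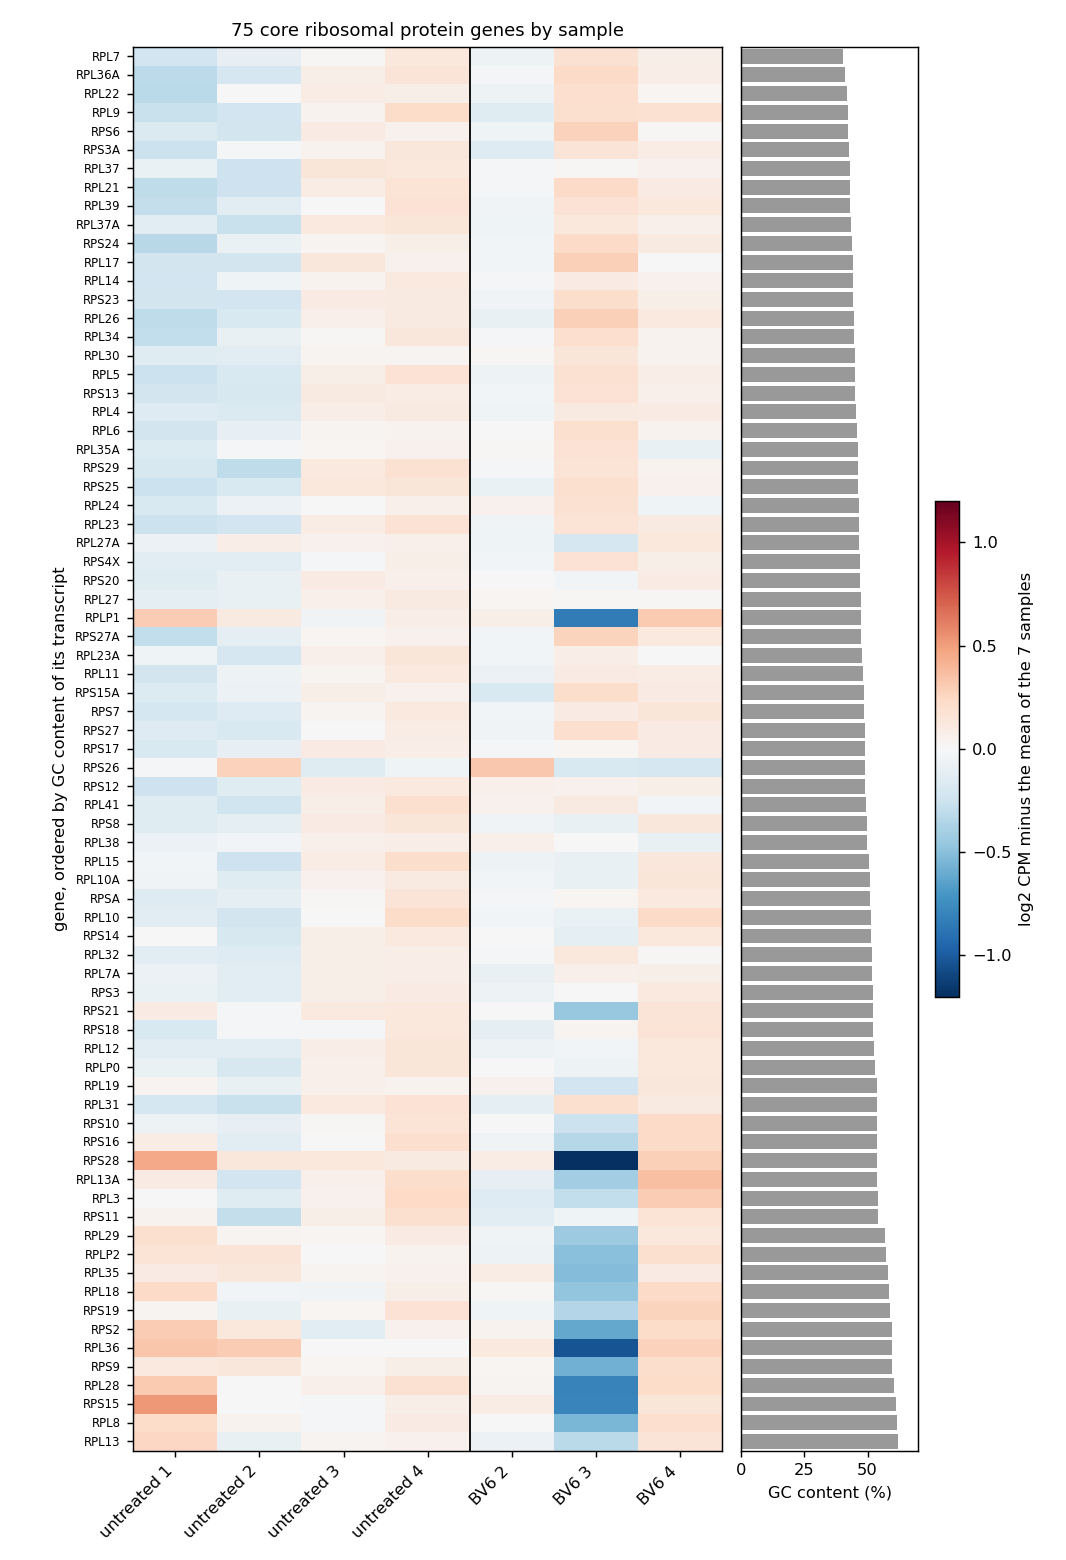
Each row is 1 of 75 core genes, ordered by the GC content of its transcript (grey bars, %), each column a sample, and the color the log2 CPM minus the mean of the 7 samples. The GC-rich genes at the bottom are low in BV6 sample 3 (blue) and mostly high in untreated sample 1 (red). RPS28 and RPL36 are the lowest in BV6 sample 3, and RPLP1, with a GC content of 47.4%, is low there too.

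Over the core genes, the log2 ratio of BV6 sample 3 to untreated sample 3 fell with GC content (Pearson's r = -0.769, Spearman's rho = -0.799, n = 77 genes), and the same trend ran through all 17465 tested genes with a known GC content (r = -0.437). In the other label pairs r over the core genes was -0.369 for BV6 sample 2 and 0.625 for BV6 sample 4. Pairs of untreated samples had trends as well. Their r ran from -0.827 for the ratio of untreated sample 3 to untreated sample 1 to 0.197 for that of untreated sample 4 to untreated sample 3. The median ratio in BV6 sample 3 was -0.32 for the 38 core genes with a GC content above the median and 0.11 for the other 39. In BV6 sample 4 these medians were 0.03 and -0.04. The genes of a sample share library and base composition, so these coefficients are a description without a test. RPLP1 (47.4% GC) and RPS28 (53.8% GC) were lower in BV6 sample 3 than core genes of similar GC content. Their GC content is uncertain, since the annotated transcripts it was taken from are long beside the coding sequence. RPLP1 has 1174 bases for 342 coding bases and RPS28 1330 for 207. This limit is not theirs alone. RPL37 has 7573 bases for 291 coding bases and RPL14 7072 for 645. The split by GC content and the coefficients over the core genes therefore share it. Whether all these bases were in the counted mRNA was not tested.

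**Figure D4:**
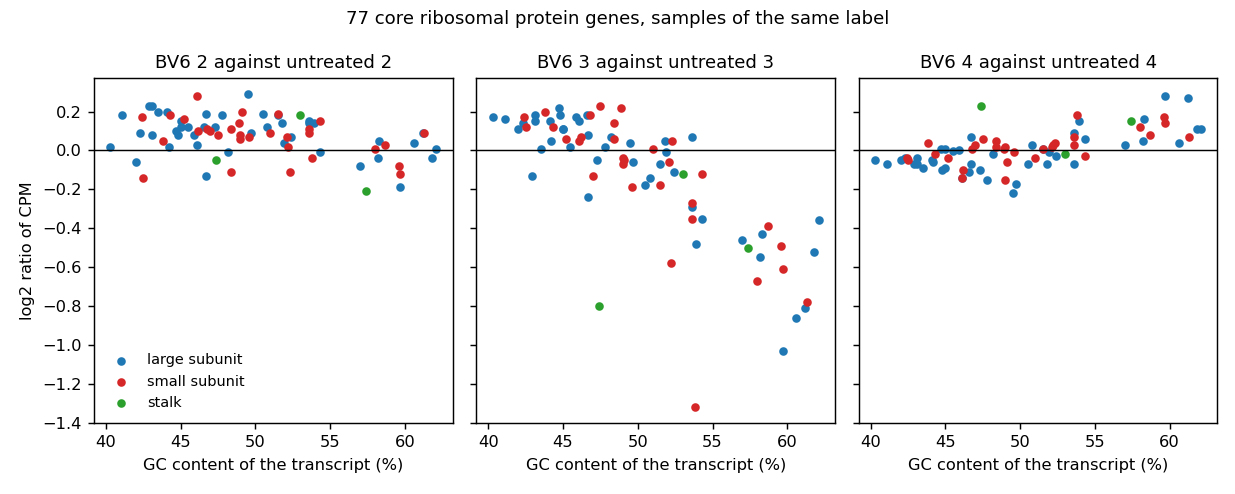
Each point is a core gene, with the GC content of its transcript (%) on the horizontal and the log2 ratio of CPM between the BV6 and the untreated sample of the same label on the vertical axis. In BV6 sample 3 (middle panel) the ratios fall with GC content. The lowest, -1.32, is that of RPS28 at 53.8% GC, below core genes of similar GC content. In the other panels the ratios stay between -0.22 and 0.29.

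Untreated sample 1 stood apart in the opposite way, with a median deviation from the mean over samples of 0.03 for core genes above the median GC content and -0.22 for the others. Of the 77 core genes, 30 had their lowest CPM in untreated sample 1, 21 in untreated sample 2 and 23 in BV6 sample 3. The highest CPM was in BV6 sample 3 in 25 genes, of which 23 had a GC content at or below the median. Without BV6 sample 3, log2 fold changes of the 83 genes lay between -0.34 (RPL3L) and 0.13 (RPL10), and those of the 77 core genes at or above -0.04. Again 0 genes were called by edgeR. When each library's trend with GC content was removed, the values for RPS15 and RPL28 went from -0.29 to -0.09 and from -0.26 to -0.1, whereas that of RPS28 was -0.33. The part of GC content in the differences between groups was not tested further.

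Features of the genes that the choice of the family did not use were set beside the fold changes. Core genes with the pyrimidine run at the start had a median log2 fold change of 0.06 (46 genes) and those without it of 0.04 (16 genes). Genes whose run begins just beside the annotated start, such as RPS28, were counted here as without it. The medians were 0.04 for the 28 core genes with a snoRNA gene inside and 0.06 for the other 49. For GC content above and at or below the median, they were -0.04 (38 genes, 14 above 0) and 0.11 (39 genes, 36 above 0). The median deviations from the mean over samples for these sets were -0.28 and 0.17 in BV6 sample 3. In untreated sample 1 they were 0.03 and -0.22. The part of each sample in the contrast was not tested.

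Genes with related roles were looked at in the same test. Beside each list stand the shares over all genes tested, 0.45% called by edgeR and 1.93% by DESeq2. At an unadjusted p below 0.05 in edgeR this share was 8.39%. Of 4 other genes of cytosolic ribosomal proteins whose symbols the rule does not take, among them FAU, RPL36AL and RACK1, 0 were called by edgeR or DESeq2 and 0 had an unadjusted p below 0.05 in edgeR. FAU was at 137, 142, 112 and 119 CPM in untreated and at 130, 70.2 and 128 CPM in BV6-treated samples, with BV6 sample 3 again the lowest, and RPL36AL had a log2 fold change of 0.18 (SE 0.112, edgeR adjusted p = 0.728).

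Other mRNAs known to carry the TOP motif had a median log2 fold change of 0.05 (33 genes, 22 above 0), and edgeR called 0 of them. At an unadjusted p below 0.05 in edgeR there were 3, against 8.39% of all genes tested. The intermediate filament gene VIM came nearest. It was at 2438, 2520, 2324 and 2439 CPM in untreated and at 3925, 3247 and 3500 CPM in BV6-treated samples, so that all BV6-treated samples were above all untreated ones. The log2 fold change was 0.55 (SE 0.0989), with an adjusted p of 0.0561 in edgeR, and an adjusted p of 0.000332 in DESeq2, which called it. GAS5, a host of snoRNAs, was at 97 ± 7.52 CPM (n = 4) and 128 ± 11 CPM (n = 3), also without overlap between groups (log2 fold change 0.40, SE 0.106, edgeR adjusted p = 0.233).

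**Figure D5:**
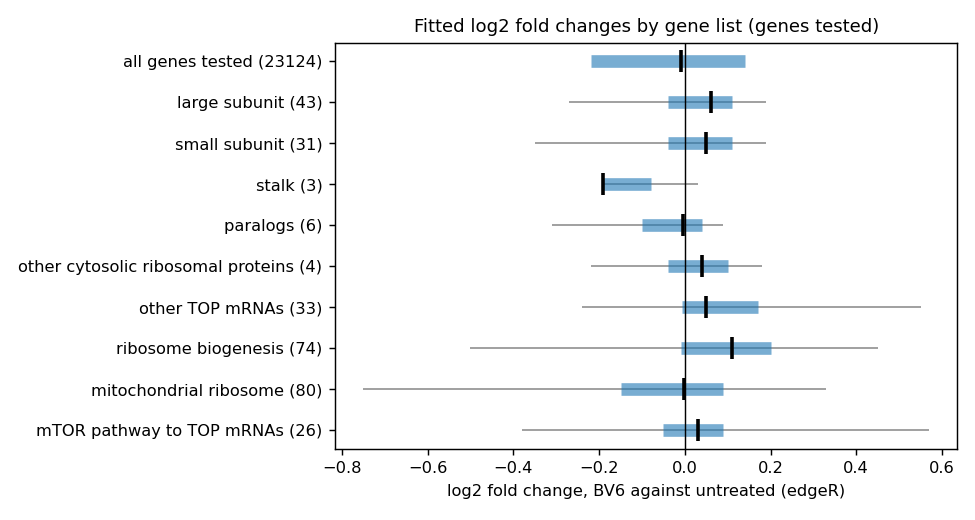
Black ticks give the median edgeR log2 fold change of BV6-treated against untreated samples (horizontal axis) for each gene list, blue bars the span between its quartiles, and grey lines the full range (not drawn for all genes tested). The medians of the large subunit (0.06), the small subunit (0.05) and the other TOP mRNAs (0.05) lie close to that of all genes (-0.01).

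Genes of ribosome biogenesis had a median of 0.11 (74 genes, 52 above 0), and 0 were called by edgeR or DESeq2. In edgeR 3 had an unadjusted p below 0.05, against 8.39% of all genes tested. Among them WDR75, a factor of early small subunit assembly, was at 60 ± 9.69 CPM (n = 4) in untreated and 81.8 ± 8.55 CPM (n = 3) in BV6-treated samples (log2 fold change 0.45, SE 0.143, edgeR adjusted p = 0.371). NOC3L had a log2 fold change of 0.39 (edgeR adjusted p = 0.568). Genes of the mitochondrial ribosome, a separate ribosome with its own proteins, had a median of -0.0012 (80 genes, 40 above 0). Of these, 0 were called by edgeR or DESeq2 and 2 had an unadjusted p below 0.05 in edgeR, MRPS33 (log2 fold change 0.33) and MRPL23 (-0.53).

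The mTOR pathway that controls TOP mRNAs had a median of 0.03 (26 genes, 14 above 0), with 0 genes called by edgeR or DESeq2. In edgeR 1 gene, SESN2, had an unadjusted p below 0.05, against 8.39% of all genes tested. SESN2, an inhibitor of mTORC1 under amino acid shortage, was at 11.5, 7.43, 7.83 and 9.23 CPM in untreated and at 16.9, 10.3 and 12.8 CPM in BV6-treated samples, where untreated sample 1 exceeded BV6 sample 3. The log2 fold change was 0.57 (SE 0.21, edgeR adjusted p = 0.499). TSC1, a brake on mTORC1, had a log2 fold change of 0.24 (SE 0.113, edgeR adjusted p = 0.612). LARP1 and MTOR belong to the same list and were not called.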

How the data were processed

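RNA of 7 RH30 samples (4 untreated, 3 with BV6) was analysed. The authors deposited raw counts per gene, made from stranded poly(A) libraries mapped to GRCh38 with STAR 2.6.1d (per the submitters' processing notes) and a union model of Ensembl isoforms. The counting program, its use of strand, of multimapped reads and of both mates of a pair are not given in the sources used here. Genes were tested with edgeR 4.0.16 in R 4.3.3 (filterByExpr with a minimum count of 10, TMM, quasi-likelihood test, condition only, 23124 genes, Benjamini-Hochberg adjusted p below 0.05). DESeq2 1.42.0 and limma-voom 3.58.1 were alternatives. CPM used TMM library sizes. Coordinates, GC content and coding length came from GENCODE release 44, matched by symbol (36335 of 57189 genes, 84 of 84 members), with GC content from the shortest transcript with the full coding length, and starts from RefSeq. Y-linked genes were left out. Named genes were the paralog pairs, the stalk, RPS27A, RPS4X, RPSA, RPS6, the 5 smallest p-values per direction and in the fit with a block, the 3 highest and lowest levels per kb, the widest untreated range and 2 genes with the smallest p of each other list. Other genes named (such as RPS28, RPL36, RPL34 and RPS26) fell outside this rule and were chosen from their values. Members and lists were chosen with earlier results of these data known. Some genes are not reported here by name.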

Additional observations from a re-analysis of the deposited data

Results flagged for a closer look

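Among the 38 groups of 4 untreated samples examined (each named gene that was tested, and the share of counts), 2 had a sample far from the other 3, close to the 1 in 20 that chance gives. In both it was untreated sample 1. RPS27L was at 31.9 CPM there and at 39.7 to 40.8 CPM in the other untreated samples, a gap of 0.882 of the whole range (Dixon's test). RPS15 was at 326 CPM there and at 225 to 240 CPM in the others, a gap of 0.858 of the range.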

How the results depend on the processing

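The count of ribosomal protein genes called stayed at 0 in all 20 alternatives, and their median log2 fold change stayed between 0.0011 and 0.08 (main value 0.04). Leaving out each sample gave a median of 0.0088 to 0.08. In the untreated group the mean share of counts ranged from 4.5 to 4.77% when a sample was left out, and in the BV6 group from 4.57 to 4.88%. With the pseudogene rows the mean shares were 5.77% in untreated and 5.92% in BV6-treated samples, and without the 5 genes with the most counts 3.86% and 3.94%, by construction of these sums. For genes of the other lists, without the muscle and leukocyte markers, the count called was 0 in edgeR and 1, VIM, with DESeq2, TMM factors computed without the ribosomal protein genes, library totals alone, no filter on low counts, limma-voom, the replicate block, the GC correction, and the length correction with the replicate block. It was 7 with the GC correction together with the replicate block (VIM, GAS5, TMEM123, SBDS, WDR75, SESN2 and TSC1, where TMEM123 and SBDS are named outside the rule for named genes, with their values known). The cause was not tested. That last setting also called 1 muscle marker higher, 5 lower and 1 leukocyte marker lower. Deviations from the group means over all tested genes correlated at 0.415, 0.393 and 0.0831 for samples with the same label. Untreated sample 4 correlated best with BV6 sample 3 (0.235). The remaining pairs of different labels correlated between -0.334 and -0.103. The main fit was made without the labels, although samples 2 and samples 3 of the groups deviated together. Under the replicate block, edgeR called 218 genes in place of 104, 0 of them ribosomal protein genes, whose median was 0.006. Counts over all genes were 447 with DESeq2, 242 without a filter, 189 with the GC correction, 1190 with that and the replicate block, 305 with the length correction and the replicate block, and 38 to 89 when a sample was left out. Of 540 values for named ribosomal protein genes under alternatives, 525 moved by less than the spread of the untreated samples and 0 became a call. Without BV6 replicate 4, RPL29, RPL39L and RPLP2 had an unadjusted p below 0.05. The small number of samples limits the precision of all these values, and depth that of RPL3L and RPL10L.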
